A study of Mus musculus with 12 samples.

Results

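The 38 genes described here carry amino acids into T cells, make amino acids inside them, or belong to the stress response run by the transcription factor ATF4. They were chosen by symbol: 17 are transporters and related carriers, and 21 are synthesis enzymes and stress response genes. All 38 have a probe on the array, among 30101 named genes, with 51 probes between them, and each gene is represented by its brightest probe. Of the 38, 36 could be tested, among 18631 genes in all, because each array of some group measured them clearly over background. The others were Slc7a10, an alanine and serine carrier that was above background on 1 naive and 2 immunised arrays, and Slc38a4, a neutral amino acid carrier that was above background on 1 culture array.

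The study followed CD4+ T cells of mice through EAE (experimental autoimmune encephalomyelitis), an induced disease that models multiple sclerosis, on 12 single-colour arrays in 4 groups of 3. Naive cells were splenic, from the B6.2d2 strain, which carries a receptor transgene specific for MOG, a myelin protein. Cultured cells were B6.2d2 naive cells that had been turned into Th17 cells in vitro. Transferred cells were such Th17 cells, given to Rag1-/- mice to induce EAE and taken back from their central nervous system (CNS) at peak disease. Immunised cells were the CD4+ T cells isolated at peak disease from the CNS of wild-type C57BL/6 mice that had received MOG35-55 peptide. The first 3 groups therefore share 1 transgenic receptor and the last has none. Rag1-/- recipients have no T or B cells of their own but keep their myeloid cells, and an immunised C57BL/6 mouse keeps all of its lymphocytes. The transferred and immunised groups thus differ in strain, receptor, recipient and route of disease together, and these cannot be told apart. The series text gives 3 independent experiments as the source of the replicates; the number of mice behind an array, their age and the purity of the cells are not given in the sources used here.

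ATF4 is made when the kinase GCN2 senses a shortage of amino acids or when PERK senses misfolded proteins in the endoplasmic reticulum, because phosphorylation of eIF2 favours translation of its messenger RNA. It switches on amino acid transporters, the enzymes that make serine, asparagine and cysteine, tRNA synthetases and a set of stress genes such as Trib3, Ddit3, Chac1 and Asns. Since ATF4 is regulated largely at translation, its own transcript and its targets need not move together. Activated T cells depend on imported leucine, glutamine, arginine and cysteine and on serine-derived one-carbon units to grow.

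ATF4 binds with C/EBP partners to a composite element whose core is written TGATGNAA, so the promoter windows of the members were read for it in RefSeq (GRCm38.p6), from 250 bases before to 50 after each start, on both strands. No other motif was searched. An entry was found for 32 members, and 9 of them (28.1%) hold the core: Asns, Chac1, Nupr1, Pycr1, Slc1a4, Slc7a7, Slc7a11, Trib3 and Vldlr. Among all 32851 windows of this length 3.97% hold it, and 4.51% of all 27025 genes with an entry. These are 3 of 12 transporters and 6 of 20 synthesis and stress genes with an entry. The 7 members below hold a match wholly upstream of the start, Slc7a7 in the windows of different starts, and are printed on the strand of the gene with the core, or its reverse complement, in capitals.
Asns, chr6:7693210-7693269, minus strand: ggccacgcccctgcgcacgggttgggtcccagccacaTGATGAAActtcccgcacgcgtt
Chac1, chr2:119351023-119351082, plus strand: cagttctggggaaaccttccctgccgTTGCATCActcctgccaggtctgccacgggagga
Nupr1, chr7:126625547-126625606, minus strand: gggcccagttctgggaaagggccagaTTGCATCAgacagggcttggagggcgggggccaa
Pycr1, chr11:120643818-120643877, minus strand: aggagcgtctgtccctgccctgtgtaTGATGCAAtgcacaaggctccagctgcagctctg
Slc7a11, chr3:50443643-50443705, minus strand: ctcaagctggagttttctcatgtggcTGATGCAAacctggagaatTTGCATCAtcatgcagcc
Slc7a7, chr14:54417893-54417952, minus strand: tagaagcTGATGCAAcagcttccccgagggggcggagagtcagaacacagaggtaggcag
Slc7a7, chr14:54418052-54418111, minus strand: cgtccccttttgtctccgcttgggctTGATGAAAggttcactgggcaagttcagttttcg
Vldlr, chr19:27216794-27216853, plus strand: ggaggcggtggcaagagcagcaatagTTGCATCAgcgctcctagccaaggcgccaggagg
Slc7a11 holds 2 copies in opposite orientation, and Asns holds its copy 23 to 16 bases before the start. A match is a string of letters and not a measured binding site.

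Levels are on the log2 scale, with 0 at the 75th percentile of each array's signals, and a step of 1 is a doubling; values in a row are replicates 1, 2 and 3. Between 57.1% and 64.9% of probes were well above background on an array, and the lowest such signals lay at levels of -6.05 to -5.26. Where a gene was not well above background on any array of a group, its change is given as at least so many fold, with the dim group set to the higher of its own signal and the lowest signal called well above background on that array. All 10 T cell markers were well above background on every array, with a summed signal (100 is the array's 75th percentile) of 46460 to 53424 in naive, 50566 to 53028 in cultured, 22411 to 32490 in transferred and 30345 to 46500 in immunised cells. The 17 macrophage and monocyte markers summed to 2332 to 9416, 1938 to 3087, 58980.5 to 89130 and 46020 to 93929 in the same order. All 17 were above background on at least 1 transferred array, and 16 in immunised cells, where Cd163 was not, whereas 7 were on no naive array. The 10 neutrophil markers summed to 10664 to 21779, 8453 to 9683, 8971 to 23386 and 48699 to 58962 in the same order, so naive and transferred cells overlapped. The macrophage marker Itgam and the neutrophil markers Csf3r and Mpo went the other way, lower on every CNS array than on any naive one. By most macrophage markers both CNS groups carry RNA of myeloid genes, and its part in the results was not tested. All 8 microglia markers were above background on every CNS array, against 4 on every naive and 6 on every cultured array, but their sums overlapped naive cells. Of 8 astrocyte markers, 8 were so on transferred, 6 on immunised, 3 on naive and 4 on cultured arrays, with the highest sums in culture. The part of RNA from cells of the CNS was not tested either. Fewer cells of a type and less RNA per cell cannot be told apart in such bulk samples. The Th17 cytokine gene Il17a was at 5.36, 5.45 and 2.30 in culture and at -4.96, -6.27 and -5.89 in naive cells, and culture replicate 3 was also lowest of its group in Il17f and Il23r. Results that rest on that array are given with and without it.

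More members were called higher than lower in each activated group against naive cells, and the median change was largest after transfer. Of the 36 members, 23 had their lowest group mean in naive cells and 21 their highest in transferred cells, against 26.6% and 16.8% of all genes. In cultured against naive cells 20 members rose and 2 fell at an adjusted p under 0.05 (limma, Benjamini-Hochberg over all 18631 genes), where 19.2% of all genes rose and 21.3% fell. The median change of the members was 1.12 on the log2 scale (0.91, 1.01 and 1.14 within the 3 slides), and that of all genes -0.11. Without culture replicate 3, 19 rose and 2 fell.

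In transferred against cultured cells 13 members rose and 1 fell, with 12.7% of all genes higher and 15.9% lower, and the median of the members was 0.47 (0.37, 0.35 and 0.97 within slides). Against naive cells, transferred cells had 26 members higher and 3 lower, with 20.5% of all genes higher and 28% lower, and a median of 1.82. Immunised cells had 13 members higher and 3 lower than naive cells, with 19.9% of all genes higher and 29.9% lower, and a median of 0.36. Against cultured cells they had 6 members higher and 9 lower, with 13.5% and 18.4% of all genes, and a median of -0.38. The 3 comparisons with naive cells share the naive arrays. In immunised against transferred cells 1 member rose and 11 fell, where 1.82% of all genes rose and 1.37% fell, with a median of -0.94 for the members and -0.05 for all genes.

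**Figure D1:**
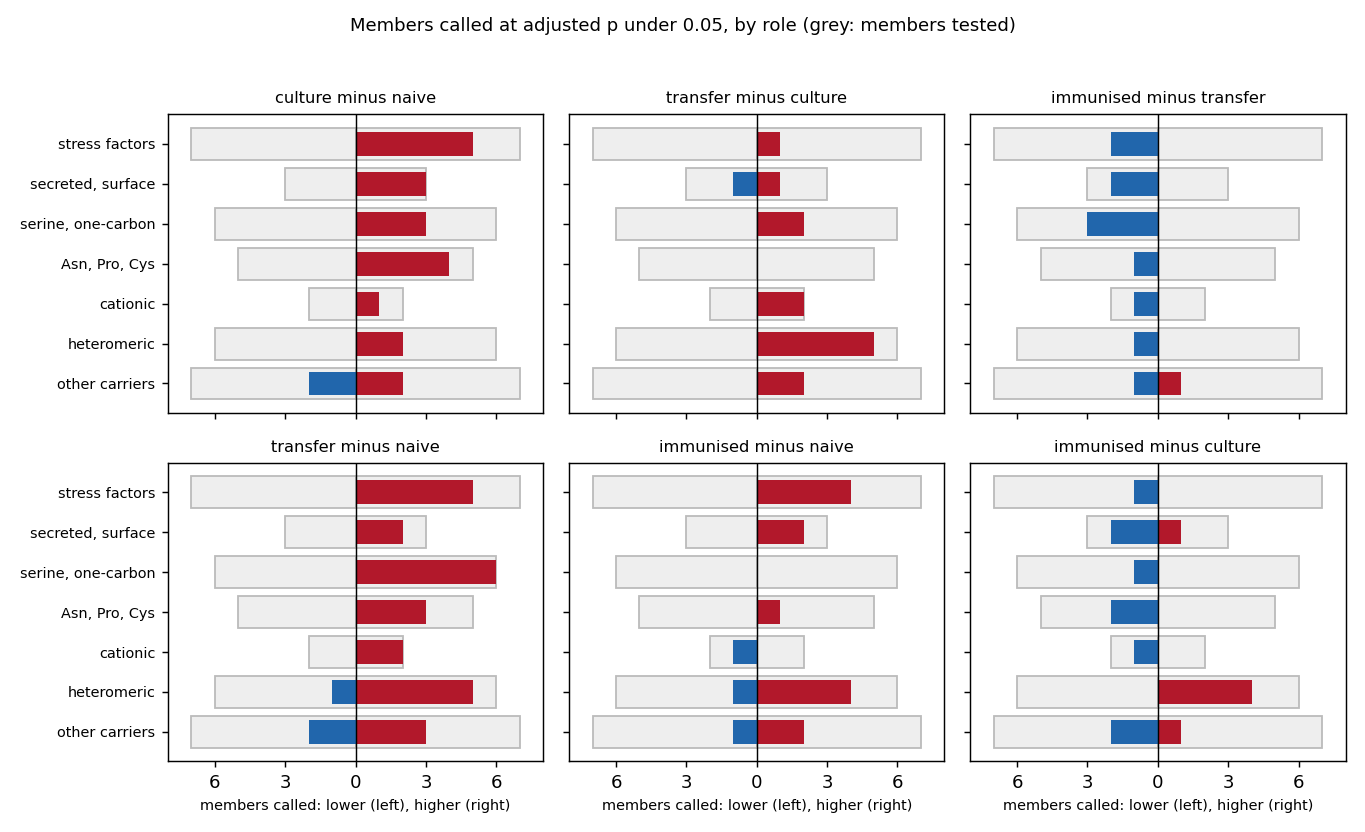
Number of members called lower (blue, to the left) and higher (red, to the right) at an adjusted p under 0.05 in each of the 6 comparisons, by role, on a horizontal axis of members; grey bars show the members tested. Red bars fill most of the stress and synthesis groups in culture minus naive, and immunised minus transfer has 11 members to the left and 1 to the right.

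Among the stress factors the ATF4 transcript itself moved with no group. Atf4 (probe on mm9 chr15:80087902-80087961) lay at 6.67, 5.29 and 5.89 in naive, 5.62, 6.14 and 7.23 in cultured, 5.86, 5.95 and 6.57 in transferred and 5.66, 5.91 and 5.80 in immunised cells. All 4 groups overlap, no comparison was called, and the change from naive to culture was 0.38 (SE 0.43, adjusted p = 0.508). Ddit3, which encodes the pro-apoptotic factor CHOP, was likewise called in no comparison. It was at 0.76, 0.23 and 0.02 in naive, -0.11, 0.15 and 1.43 in cultured, 0.27, -0.46 and -0.59 in transferred and -0.63, -0.33 and -0.45 in immunised cells, and the highest value was that of culture replicate 3.

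Genes downstream of them rose in culture. Chac1, which breaks down glutathione, was not above background on any naive array (-6.32, -7.79 and -5.47), and was at -1.33, -0.58 and -0.64 in cultured, -1.62, -1.79 and -0.64 in transferred and -2.18, -2.02 and -2.94 in immunised cells. Each of the 3 activated groups stood clear of naive cells: Chac1 was at least 25.8-fold higher in culture (adjusted p = 2.66e-05), at least 18.3-fold after transfer (3.68e-05) and at least 8.94-fold after immunisation (0.000163). Nupr1, a small stress-induced chromatin protein, was above background on 2 of 3 naive arrays (-5.39, -5.53 and -3.99) and was at 0.49, 2.35 and 0.94 in culture, 2.03, 2.71 and 4.02 after transfer and 1.83, 1.51 and 2.63 after immunisation. It rose by 6.23 (SE 0.63, adjusted p = 4e-05) in culture against naive cells, by 7.89 in transferred (6.71e-06) and by 6.96 in immunised cells (1.5e-05), and the transferred, immunised and cultured groups overlapped. Nupr1 is also active in macrophages, whose markers rise in both CNS groups as given above, and their part was not tested.

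Atf5, a factor that ATF4 and CHOP induce, took 3 levels. It was at 0.55, 0.38 and 0.36 in naive, 2.06, 3.25 and 2.34 in cultured, 3.68, 3.99 and 5.34 in transferred and 2.09, 2.41 and 2.19 in immunised cells. Transferred cells lay above every other array, by 1.79 over culture (SE 0.41, adjusted p = 0.00884; 0.059 from only the 6 arrays compared), and cultured and immunised cells, each above naive by 2.12 (0.00218) and 1.80 (0.0044), overlapped. Atf5 fell by 2.11 from transferred to immunised cells (adjusted p = 0.0226), which missed the threshold without immunised replicate 1 (0.0978), 2 (0.0678) or 3 (0.061). Sesn2, a leucine sensor that restrains mTORC1, rose by 1.26 in culture (adjusted p = 0.00154) and by 1.66 after transfer (0.000227) against naive cells, and was higher after immunisation too (0.00476).

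Trib3, a pseudokinase that feeds back on ATF4, was at 1.24, 0.48 and 0.53 in naive, 1.16, 2.10 and 2.48 in cultured, 1.52, 2.25 and 3.09 in transferred and 0.43, 0.50 and 0.35 in immunised cells. Immunised cells were low on all 3 arrays and lay below every cultured and transferred array, while naive replicate 1 overlapped culture. Its rise in culture (1.16, adjusted p = 0.0468) rested on single arrays: without culture replicate 3 it was 0.88 (0.141), and it was also lost without culture replicate 2, naive replicate 2 or 3, transfer replicate 2 or any immunised replicate (0.0615 to 0.129). That call was lost in 3 other settings too (0.0542 to 0.0742). The rise after transfer, of 1.54 (0.0111), was called at 0.05 in every alternative run. In immunised cells it fell by 1.48 from culture (0.0213) and fell by 1.86 from transfer (0.041). The first was lost without culture replicate 2 or 3 or immunised replicate 1 or 3 (0.0542 to 0.0682). The second was lost without transfer replicate 2 or 3, any immunised replicate, naive replicate 2 or 3, or culture replicate 2 (0.0513 to 0.136). It was also lost in 4 other settings (0.0527 to 0.0724) and kept in 10 of 22 alternatives.

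The secreted and surface targets each had their own pattern. Gdf15, a stress cytokine of the TGF-beta family (probe on mm9 chr8:73153293-73153352), was not above background on any naive array (-7.57, -8.21 and -7.33) and was at -5.74, -3.74 and -4.42 in culture, 3.27, 3.84 and 4.48 after transfer and 0.27, 1.28 and 2.14 after immunisation. The 4 groups do not overlap at all. Transferred cells were 361-fold above culture (log2 8.50, SE 0.58, adjusted p = 7.74e-06) and at least 728-fold above naive cells (4.12e-07), and immunised cells at least 117-fold above naive (1.79e-06). The step from naive to culture was smaller, at least 2.01-fold (0.00186), and with normexp background correction it was 0.54 on the log2 scale and not called (0.368). Gdf15 fell by 2.63 from transferred to immunised cells (0.0376), a call that was lost without immunised replicate 1 (0.144) or 2 (0.109), transfer replicate 2 (0.091) or 3 (0.138), or naive replicate 1 (0.0549) or 3 (0.0527). Macrophages also make Gdf15: 15 of the 16 macrophage markers tested rose from culture to transfer with a median of 7.68, and their part in the rise of Gdf15 was not tested. Between the CNS groups 1 of these 16, Mrc1, was lower in immunised cells and none was higher.

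Stc2, a secreted glycoprotein that limits calcium entry under stress (probe on mm9 chr11:31260136-31260195), was high in culture already. It was not above background on any naive array (-7.29, -6.91 and -6.62) and was at 0.88, 1.80 and 2.95 in cultured, 0.30, 0.13 and 1.34 in transferred and -3.09, -3.19 and -2.31 in immunised cells. Cultured and transferred cells overlapped (difference -1.29, SE 0.50, adjusted p = 0.0777), and immunised cells lay between them and naive cells without overlap. Stc2 was at least 184-fold above naive in culture (9.42e-07), at least 75.2-fold after transfer (2.06e-06) and at least 6.87-fold after immunisation (0.000109). Vldlr, a lipoprotein receptor that ATF4 induces, was higher on every cultured array than on any other, and varied most there: -0.96, 0.08 and 3.52 there, against -5.79, -7.97 and -3.02 in naive cells, where 1 array was above background, -5.39, -5.98 and -4.39 after transfer, where 2 were, and -7.76, -6.21 and -6.66 after immunisation, where none was. It fell by 6.13 from culture to transfer (adjusted p = 0.00573) and by 4.81, still called, without culture replicate 3. Its second, dimmer probe, above background on 2 cultured arrays only, gave -2.58.

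**Figure D2:**
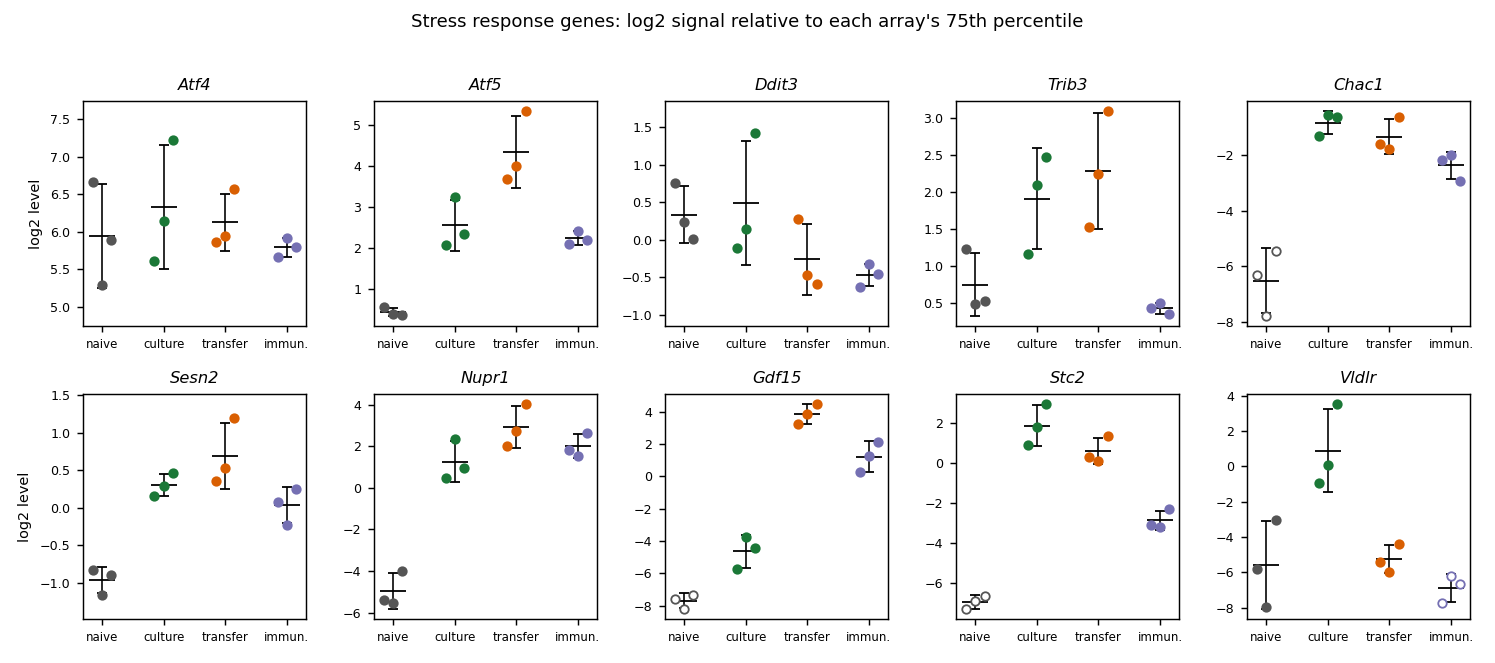
Level of each stress gene on every array (log2 signal relative to the array's 75th percentile, vertical axis, with its own scale in each panel) in the 4 groups, immunised shortened to immun.; points are arrays, bars the mean and SD of 3, and open points mark a group with no array well above background. The 4 groups of Atf4 overlap, while Gdf15 is highest after transfer, from 3.27 to 4.48, and Stc2 is lowest of the activated groups after immunisation, from -3.19 to -2.31.

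Serine is made from a glycolytic intermediate by Phgdh, Psat1 and Psph in turn, and Shmt1, Shmt2 and Mthfd2 then pass its carbon to folate. All 6 genes were higher in transferred than in naive cells, 3 were higher in culture and none was called in immunised against naive cells. Of all genes, 20.5%, 19.2% and 19.9% were higher in these comparisons, and 28%, 21.3% and 29.9% lower. Phgdh was at 2.72, 2.68 and 2.47 in naive, 2.36, 2.21 and 2.06 in cultured, 3.14, 3.35 and 3.65 in transferred and 2.03, 2.57 and 2.53 in immunised cells. The transferred arrays lay above all others: Phgdh rose by 1.17 over culture (SE 0.20, adjusted p = 0.00165) and by 0.76 over naive cells (0.00903), and its second probe gave 1.17 and 0.78. Every cultured array lay below every naive one. That change of -0.42 was not called (0.117), but was with quantile normalization and with the deposited series matrix. Shmt2, the mitochondrial enzyme, was also highest on the 3 transferred arrays, at 1.29, 1.19 and 1.13 in naive, 1.65, 1.53 and 1.62 in cultured, 2.05, 2.38 and 2.70 in transferred and 1.03, 1.49 and 1.28 in immunised cells, and rose by 0.78 from culture to transfer (0.0116), a call lost with median scaling or from only the 6 arrays compared (0.0583 to 0.0751).

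Psat1, the aminotransferase, was at 0.77, 0.67 and 0.72 in naive, 2.13, 1.50 and 3.11 in cultured, 2.51, 2.85 and 2.99 in transferred and 1.20, 1.54 and 1.72 in immunised cells. It rose by 1.52 in culture (SE 0.34, adjusted p = 0.00485; 1.09 without culture replicate 3) and by 2.06 after transfer (0.000648) against naive cells, and the 0.77 after immunisation missed the threshold (0.0823) although the arrays do not overlap. Psph, the phosphatase, was at 1.51, 1.23 and 1.24 in naive, 1.95, 1.94 and 1.63 in cultured, 1.92, 2.10 and 2.14 in transferred and 0.88, 1.44 and 1.0 in immunised cells. From culture to immunised cells it fell by 0.73 (0.0128), and it fell by 0.62 (0.0584) without immunised replicate 1. Its rise in culture of 0.51 (0.0474) was lost without culture replicate 1 or 2, naive replicate 2 or 3, immunised replicate 1 or 3 or any transferred replicate (0.0538 to 0.131). That rise was also lost in 6 other settings, such as quantile normalization and median scaling (0.0549 to 0.0950), and was kept in 7 of 22 alternatives. Mthfd2 rose by 1.08 in culture (0.0123) and by 1.46 after transfer (0.00187) over naive cells. Shmt1, the cytosolic enzyme, rose only from naive to transferred cells, by 1.15 (0.0326), and that call was lost without any 1 of the naive or transferred arrays (0.0518 to 0.0996). The second Shmt1 probe gave -0.01 for this change, and the mean of both probes 0.57 (0.0925).

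Asparagine synthetase was the most changed enzyme whose transcript was above background in every group. Asns (probe on mm9 chr6:7625171-7625228) was at -3.64, -1.49 and -0.48 in naive, 2.14, 2.09 and 3.22 in cultured, 2.99, 3.34 and 4.19 in transferred and 1.90, 2.13 and 2.16 in immunised cells. Naive cells varied widely and lay below all others, and Asns rose by 4.35 in culture (SE 0.67, adjusted p = 0.000551), 5.38 after transfer (0.000115) and 3.94 after immunisation (0.000828). Without naive replicate 1 these were 3.47, 4.49 and 3.05, and all were called. The change of -1.44 from transferred to immunised cells did not pass (0.262). Among the 11 synthesis enzymes Asns was the only one called higher in immunised than in naive cells, where 19.9% of all genes were higher.

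Cth, which makes cysteine from cystathionine (probe on mm9 chr3:157560183-157560242), separated the CNS groups. It was not above background on any naive (-7.37, -7.98 and -5.79) or immunised array (-7.37, -7.60 and -7.48), and was at -4.15, -3.02 and -0.80 in cultured and -2.20, -1.88 and -2.01 in transferred cells. Cth was at least 7.93-fold higher in culture (adjusted p = 0.000985) and at least 12.2-fold higher after transfer (0.000342) than in naive cells, and at least 12.1-fold lower in immunised than in transferred cells (0.00349). The bound in culture was 4.17-fold without culture replicate 3, the highest array, and 13.3-fold without culture replicate 1, the lowest. A second Cth probe was also above background on all cultured and transferred arrays and on no naive or immunised one. Cbs, the enzyme before it, was called in no comparison, its lowest adjusted p being 0.0994 in transfer minus culture. Pycr1, the last step of proline synthesis, was above background on 1 naive and no immunised array. It rose by 2.38 in culture (0.00626), not called with normexp, at 0.72, or with the mean of its probes, at 1.23. Its rise after transfer was 2.23 (0.00719), not called with normexp, at 0.66 (0.0722). The second, dimmer Pycr1 probe gave 0.08 and 1.28 for these changes. Aldh18a1, the first step, rose by 0.65 in culture (0.0444), a call lost without any 1 of the naive or cultured arrays, immunised replicate 1 or 2 or transfer replicate 2 (0.0517 to 0.106). That call was also lost in 2 other settings (0.0643 to 0.0732).

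**Figure D3:**
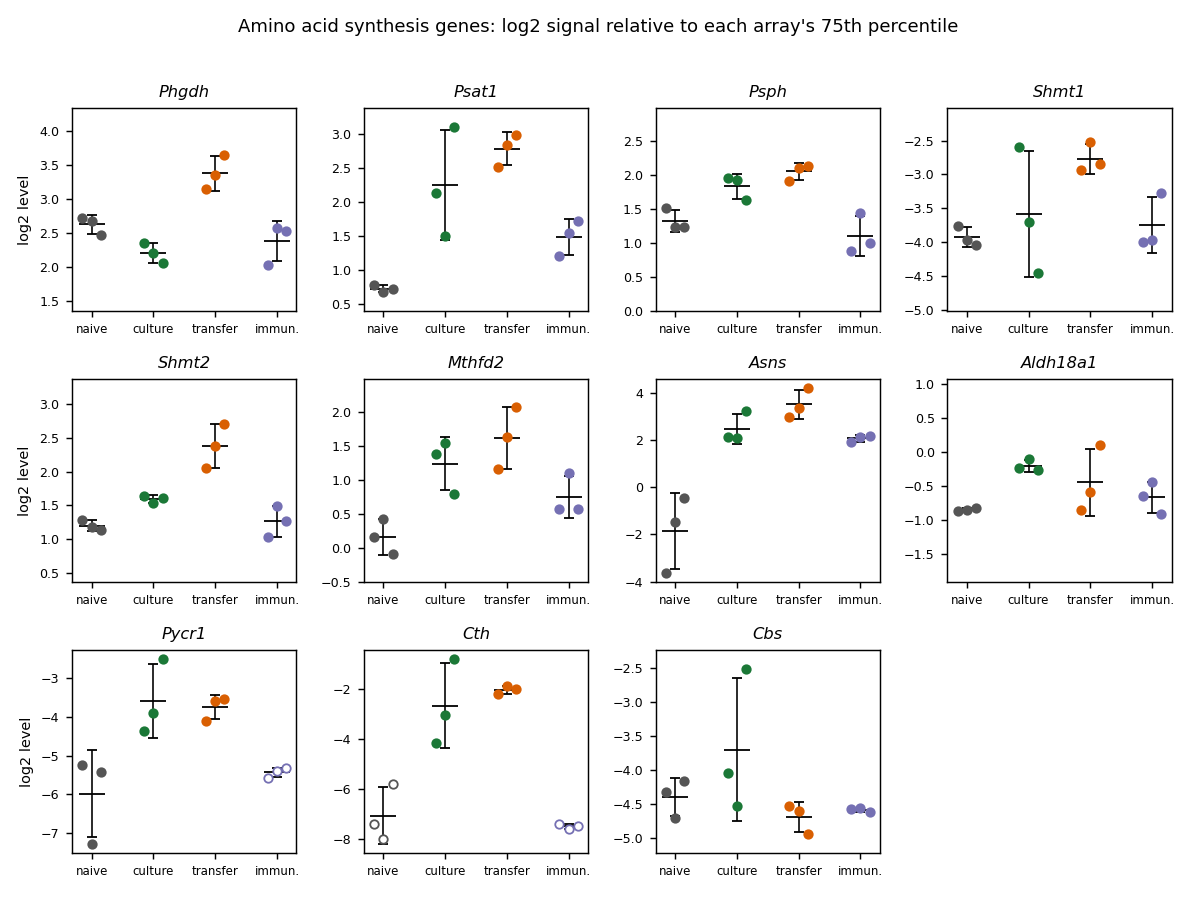
Level of each amino acid synthesis gene on every array (log2 signal relative to the array's 75th percentile, vertical axis, own scale per panel) in the 4 groups; points are arrays, bars the mean and SD of 3, open points a group with no array well above background. Phgdh and Shmt2 are highest on the 3 transferred arrays, and Cth is near -2 after transfer (-2.20 to -1.88) and near background after immunisation (-7.60 to -7.37).

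Of the cationic carriers, which bring in arginine and lysine, Slc7a3 changed in all 6 comparisons. Slc7a3 (probe on mm9 chrX:98274644-98274703) was at -3.62, -3.48 and -2.74 in naive, -2.67, -1.61 and -1.53 in cultured, -0.05, 0.37 and 0.19 in transferred and -4.79, -3.97 and -4.31 in immunised cells. The 4 groups do not overlap, and immunised cells lie below naive ones. It rose by 1.34 in culture (SE 0.35, adjusted p = 0.0109) and by a further 2.11 after transfer (0.00144), and fell by 4.53 from transferred to immunised cells (8.77e-05), a 23.1-fold difference. Slc7a3 fell by 1.08 from naive to immunised cells (0.025), a call lost without immunised replicate 1 (0.0951) or 3 (0.0594) or naive replicate 3 (0.0971), and with normexp (0.0787). Slc7a1, the ubiquitous carrier, was at 2.72, 2.63 and 2.55 in naive, 2.90, 2.57 and 2.86 in cultured, 3.27, 3.27 and 4.06 in transferred and 2.50, 3.04 and 2.62 in immunised cells. Its transferred arrays lay above all others, and it rose by 0.76 from culture to transfer (0.0347), lost without culture replicate 1, 2 or 3 or transfer replicate 3 (0.0501 to 0.113), and by 0.90 from naive cells to transfer (0.00931).

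The heteromeric carriers pair the heavy chain Slc3a2 (CD98) with a light chain that sets the cargo. Slc3a2 was at 2.89, 2.52 and 2.58 in naive, 2.99, 3.43 and 3.28 in cultured, 4.41, 4.58 and 4.97 in transferred and 4.44, 4.66 and 5.02 in immunised cells. It was higher in both CNS groups than in naive and cultured cells, by 1.99 after transfer (adjusted p = 4.63e-05) and 2.04 after immunisation (4.16e-05) over naive cells, and the CNS groups differed by 0.05 (SE 0.22, 0.924). The part of myeloid RNA in the rise of Slc3a2 was not tested. Slc7a5, the light chain for leucine, was at -1.06, -1.35 and -1.36 in naive, 0.25, 0.37 and -0.76 in cultured, 0.66, 1.03 and 1.70 in transferred and -0.68, -0.46 and -0.36 in immunised cells. It rose by 1.21 in culture (0.0133) and by 1.18 from there to transfer (0.021; 0.89 and 0.0799 without transfer replicate 3), and cultured and immunised cells overlapped. Its second probe did not show the rise in culture (-0.65), and the mean of both probes gave 0.28 (0.361). Slc7a6, the light chain that exchanges arginine for glutamine, ran down: it was at -0.86, -0.87 and -1.10 in naive, -1.26, -1.12 and -1.91 in cultured, -2.25, -1.80 and -2.04 in transferred and -1.65, -1.40 and -2.22 in immunised cells. It fell by 1.08 after transfer (0.00584) and fell by 0.81 after immunisation (0.0245), the latter lost with median scaling (0.0637) and without immunised replicate 3 (0.103) or naive replicate 1 (0.0661) or 2 (0.0636).

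Slc7a7, Slc7a8 and Slc7a11 were high in both CNS groups, and Slc7a10 was above background on no transferred array. Slc7a8, a broad neutral amino acid light chain, was not above background in naive cells (-6.78, -7.14 and -6.40) and was at -4.11, -4.36 and -4.86 in cultured, -0.21, 0.48 and 1.32 in transferred and 0.17, -0.69 and 1.18 in immunised cells. The CNS groups overlap and lie above all other arrays: Slc7a8 was 31.4-fold above culture after transfer (adjusted p = 5.72e-05) and 25.3-fold after immunisation (7.02e-05). Its step from naive cells to culture, at least 2.3-fold (0.00336), was not called with normexp (0.41 on the log2 scale, 0.465). Slc7a7, the arginine and leucine exchanger, was at -2.56, -3.03 and -2.44 in naive, -2.81, -2.78 and -2.44 in cultured, 1.28, 1.88 and 1.90 in transferred and 1.85, 1.21 and 2.32 in immunised cells. Naive and cultured arrays overlapped, as did the CNS groups, and Slc7a7 rose by 4.36 from culture to transfer (7.74e-06) and by 4.47 to immunised cells (4.58e-06). Slc7a11, the cystine light chain, was above background on no naive array (-7.58, -8.21 and -8.09), on 2 cultured arrays (-5.59, -4.05 and -7.95) and on every transferred (-4.30, -2.19 and -3.27) and immunised array (-2.17, -2.98 and -1.86). The CNS groups overlapped, and Slc7a11 was at least 5.24-fold above naive after transfer (0.00108) and at least 9.88-fold after immunisation (0.00038). Its rise of 2.61 from culture to transfer (0.0399) was lost without culture replicate 1 or 3, transfer replicate 2 or 3 or any naive or immunised replicate (0.0501 to 0.136), and was 1.56 without culture replicate 3. That call was also lost in 3 other settings (0.0525 to 0.129) and kept in 8 of 21 alternatives. These 3 light chains are also expressed by macrophages, whose 16 tested markers had median changes of 7.68 from culture to transfer and 7.31 to immunised cells; the part of those cells was not tested.

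The remaining carriers went in different directions. Slc6a9, a glycine transporter, was called in all 6 comparisons and was, like Slc7a3, highest after transfer, but lowest in naive cells: -3.92, -3.53 and -3.15 in naive, -1.33, -0.62 and 0.25 in cultured, 0.80, 0.96 and 1.79 in transferred and -2.80, -1.82 and -2.03 in immunised cells. No groups overlap. It rose by 2.97 in culture (SE 0.43, adjusted p = 0.000356), by a further 1.75 after transfer (0.0123; 1.45 and 0.0508 without transfer replicate 3) and fell by 3.40 from transferred to immunised cells (0.00237). Its lead over naive cells after immunisation, 1.32 (0.0256), was lost without immunised replicate 2 or 3 or naive replicate 1 or 2 (0.0558 to 0.0868), and the change of -1.65 from culture (0.0144) was lost without immunised replicate 1 (0.0602). Slc1a4, a neutral amino acid exchanger for serine and alanine, was at 0.24, 0.76 and -0.16 in naive, 0.73, 0.75 and 0.90 in cultured, 1.94, 3.85 and 4.34 in transferred and 1.22, 0.59 and 2.56 in immunised cells. Transferred cells lay above naive and cultured ones, with a rise of 2.58 over culture (0.0107; 3.30 without transfer replicate 1, the lowest), and overlapped immunised cells.

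Slc43a1, which carries large neutral amino acids, had the opposite pattern. It was at -2.46, -2.92 and -2.87 in naive and -3.83, -3.31 and -3.97 in immunised cells, and was above background on no cultured (-6.86, -8.24 and -5.94) or transferred array (-7.58, -7.90 and -7.15). It was at least 8.68-fold lower in culture than in naive cells (adjusted p = 6.8e-05) and at least 4.06-fold higher in immunised than in transferred cells (0.00223). Slc43a3, a nucleobase carrier of the same family, was at -2.47, -1.70 and -1.50 in naive, 1.25, 0.66 and -0.46 in cultured, 0.77, 0.56 and 0.50 in transferred and 0.12, 0.02 and 0.29 in immunised cells. All activated arrays lay above naive ones, by 2.37 in culture (0.000778), 2.50 after transfer (0.000443) and 2.03 after immunisation (0.0016).

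Slc38a2, a sodium-coupled carrier of small neutral amino acids, was at 3.57, 2.91 and 2.88 in naive, 1.95, 1.94 and 2.25 in cultured, 2.47, 2.14 and 2.40 in transferred and 2.60, 2.52 and 2.48 in immunised cells. Every activated array was below every naive one. Slc38a2 fell by 1.07 in culture (adjusted p = 0.00203), fell by 0.78 after transfer (0.00923) and fell by 0.59 after immunisation (0.0346). The last was lost without naive replicate 1 (-0.36, 0.118) or any immunised replicate (0.0654 to 0.095), and with median scaling. Slc38a1, its relative, fell by 0.51 from cultured to immunised cells (0.0366), a call lost without culture replicate 1 or 3, immunised replicate 1 or 3, naive replicate 3 or transfer replicate 2 (0.0513 to 0.125). That call was also lost in 8 other settings, such as quantile normalization, median scaling and normexp (0.0573 to 0.102), and was kept in 8 of 22 alternatives. Slc1a5, the main glutamine carrier, was called in no comparison, with changes between -0.23 and 0.27.

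**Figure D4:**
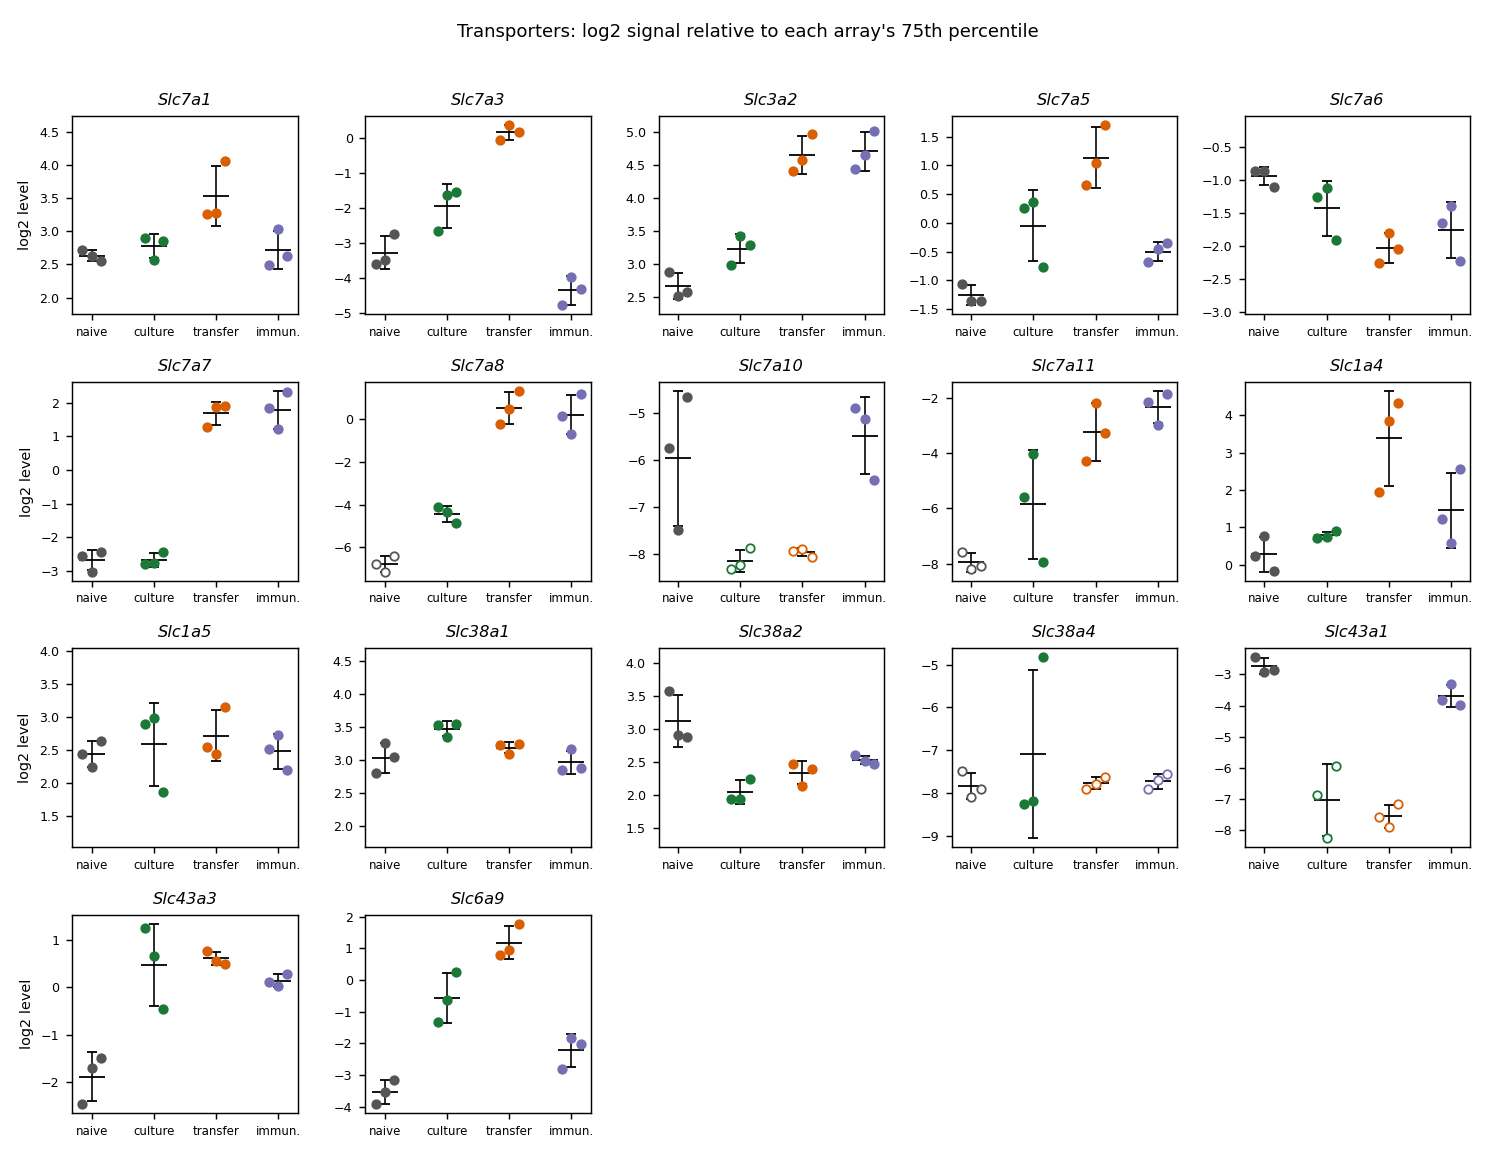
Level of each of the 17 transporters on every array (log2 signal relative to the array's 75th percentile, vertical axis, own scale per panel) in the 4 groups; points are arrays, bars the mean and SD of 3, open points a group with no array well above background. Slc7a3 and Slc6a9 are highest after transfer, Slc7a7 and Slc7a8 are high in both CNS groups, and Slc43a1 is measurable in naive and immunised cells.

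The comparison of the CNS groups sets cells primed in culture against cells primed in the animal, both taken from the diseased CNS. The groups also differ in strain, receptor, recipient and route of disease, and these cannot be told apart from the place of priming. Of the 11 members lower in immunised cells, 3 are transporters (Slc7a3, Slc6a9 and Slc7a5), 4 are synthesis enzymes (Cth, Shmt2, Phgdh and Psph) and 4 are stress genes (Stc2, Gdf15, Atf5 and Trib3), and Slc43a1 was the 1 that rose. All 12 had groups without overlap, which rests on the same values as the calls and is no separate support for them. Within the 3 slides, which each held 1 array of every group, the median change of the 36 members was -0.75, -0.77 and -1.21. Cth, Slc7a3, Stc2, Slc6a9 and Slc43a1 were called under every alternative in which they were tested. Shmt2 fell by 1.11 (SE 0.19, adjusted p = 0.012; 0.0684 without immunised replicate 1), and Phgdh fell by 1.01 (0.0233), lost without immunised replicate 1 or 2 or transfer replicate 2 or 3 (0.0541 to 0.104). Median scaling also ended the calls of Shmt2, Phgdh, Psph and Trib3. Psph fell by 0.95 (0.023), lost without immunised replicate 1 or 3 or transfer replicate 2 or 3 (0.0672 to 0.11), and Slc7a5 fell by 1.63 (0.0256), lost without transfer replicate 2 or 3 or any immunised replicate (0.0576 to 0.109). The second Slc7a5 probe gave -0.08 for this change, and the mean of both probes -0.86 (0.0772).

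The number of members called here changed when single arrays were left out: it was 5 without immunised replicate 1, 7 without immunised replicate 2, 7 without transfer replicate 2 and 7 without transfer replicate 3, and between 8 and 13 without any other array. Leaving out an array refits all genes, and whether these drops are particular to the members was not tested. Members lower in immunised cells and not called included Asns (-1.44), Psat1 (-1.30), Chac1 (-1.03) and Slc1a4 (-1.92). Between the CNS groups macrophage markers had a median change of -0.15 (1 of 16 called) and T cell markers of 0.20 (Cd5 higher), and 5 of 10 neutrophil markers were higher in immunised cells (Ltf, Ngp, Camp, S100a8 and Cxcr2; median 3.39); the part of neutrophil RNA in the falls was not tested.

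**Figure D5:**
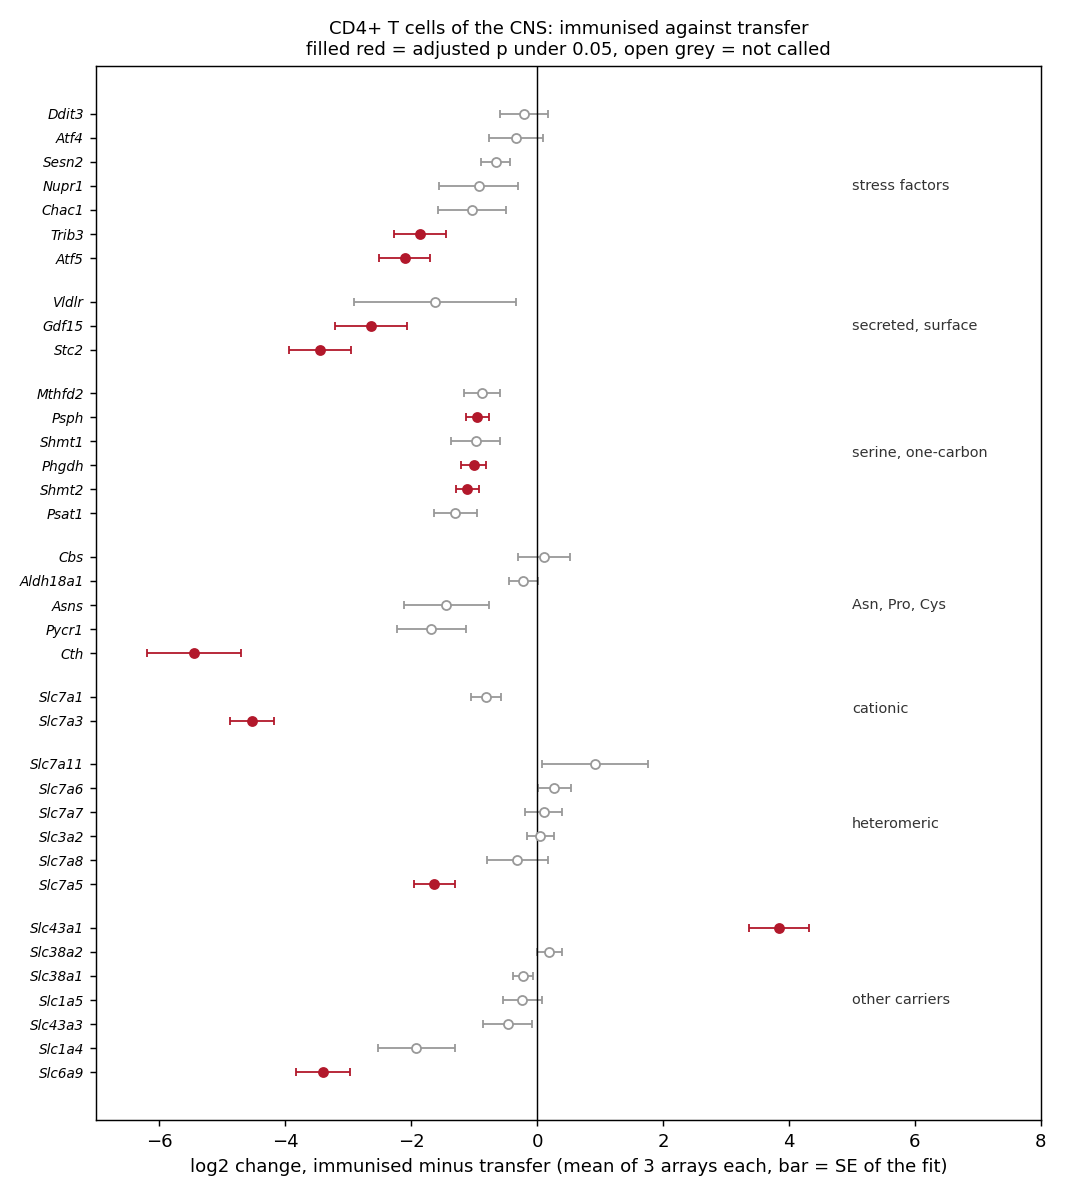
Log2 change of each of the 36 members tested in immunised against transferred cells (horizontal axis; point, mean difference of 3 arrays each; bar, SE of the fit), grouped by role; filled red points were called at an adjusted p under 0.05. The 11 called falls run from -5.45 for Cth to -0.95 for Psph, and Slc43a1 at 3.84 is the 1 called rise.

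Members with and without the ATF4 core in their window can be set side by side. Of all genes tested, 19.2%, 20.5% and 19.9% rose in culture, after transfer and after immunisation against naive cells, and 21.3%, 28% and 29.9% fell. Of the 9 with it, 6 rose in culture, 8 after transfer and 5 after immunisation against naive cells, with none lower and medians of 2.38, 4.37 and 3.94. Of the 21 tested members with an entry and no core, 10, 14 and 7 rose and 2, 3 and 2 fell, with medians of 0.57, 1.15 and 0.17. Of the 6 tested members without an entry, 4, 4 and 1 rose and 0, 0 and 1 fell, with medians of 1.28, 2.45 and -0.02. In immunised against transferred cells 1.37% of all genes fell. There, 1 of the 9 (Trib3), 7 of the 21 and 3 of the 6 without an entry (Slc7a3, Slc7a5 and Cth) fell. These counts are descriptions of members chosen by name, and no test was made.

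The wider stress pathway was read from lists of genes outside the module, to be set against the shares of all genes called. In culture minus naive 19.2% of all genes were higher and 21.3% lower, and in transfer minus culture 12.7% and 15.9%. In immunised minus culture the shares were 13.5% and 18.4%, and in immunised minus transfer only 1.82% and 1.37%. A list with none called between the CNS groups is therefore near the share of all genes. Of 17 tested regulators of the integrated stress response, 7 rose and 1 fell in culture against naive cells, 5 rose and 3 fell from culture to transfer, and none was called between the CNS groups. Atf3, a stress-induced repressor, rose by 5.12 in culture (adjusted p = 0.00083) and by a further 5.44 after transfer (0.001), and Eif4ebp1, an ATF4-induced brake on translation, rose by 4.29 in culture (5.4e-05). Gcn1, a partner of GCN2, fell by 0.62 in culture (0.0089). Ppp1r15a, which reverses eIF2 phosphorylation, rose by 2.96 from culture to transfer (0.03), as did Cebpb, Jdp2 and Ppp1r15b. Ddit4 fell by 2.18 (3.8e-05), the PERK gene Eif2ak3 fell by 0.84 (0.0052), and Eif2b4 fell too. Against culture, immunised cells had the same 5 higher, Atf3 by 5.01 and Ppp1r15a by 2.98, and the same 3 lower, Ddit4 at -2.18 and Eif2b4 at -0.61. Most macrophage markers were higher in both CNS groups than in culture, as given above. The part of myeloid RNA in the changes of this and the following lists was not tested.

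Of 16 chaperones and folding genes of the endoplasmic reticulum, 3 rose in culture against naive cells (Xbp1 by 1.76, Sdf2l1 by 1.64 and Manf by 1.16), about the 19.2% of all genes that rose, and Dnajc3 fell by 0.79. From culture to transfer Herpud1 rose by 0.90 and Edem1 fell by 1.12, immunised cells had Herpud1 0.66 above culture, and none was called between the CNS groups. Of 21 tested genes for tRNA synthetases and the tRNA exporter Xpot, Aars (1.11) and Gars (0.83) rose, a smaller share than the 19.2% of all genes, and Farsa fell by 0.44 in culture, and Nars (0.87) and Yars (0.70) rose from culture to transfer. Immunised cells had Nars 0.56 higher and Dars, Xpot, Sars and Hars lower than culture, Dars by 1.11 and Xpot by 0.71. The share lower was near the 18.4% of all genes. Between the CNS groups 1 of the 21, Xpot, was lower in immunised cells, by 0.89 (adjusted p = 0.034).

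Of 10 glutathione and NRF2 genes, 5 rose in culture (Srxn1 by 6.16, Hmox1 by 4.13, and Gsr, Gss and Txnrd1), where 19.2% of all genes rose and 21.3% fell, and Ggct and Nfe2l2 fell by 1.12 and 1.06. From culture to transfer Hmox1, Nfe2l2, Ggct and Gclm rose, Hmox1 by 2.25 and Nfe2l2 by 1.40, and none was called between the CNS groups. Immunised cells had the same 4 above culture, Nfe2l2 by 2.30 and Hmox1 by 1.51, and Gss 1.30 below. Of 15 genes that report amino acids to mTORC1, 7 fell in culture, against 21.3% of all genes, Sesn1 by 3.1 (adjusted p = 5.6e-06) and Rragb by 1.35, and Rraga rose by 0.77. From culture to transfer Sesn1, Lamtor3 and Flcn rose and Nprl2, Rraga and Mtor fell, by at most 0.85 in size, and immunised cells had Sesn1 0.75 above and Sesn3, Rraga and Nprl2 below culture.

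Of 21 enzymes of amino acid interconversion, 10 rose and 3 fell in culture (Prodh by 1.99, and Aldh4a1 and Mtr), with Gls2, a glutaminase, at least 47.6-fold higher and the arginase gene Arg1 at least 17.3-fold higher than in naive cells; of all genes 19.2% rose and 21.3% fell. From culture to transfer 6 rose and 4 fell: Arg1 rose by 8.11 (adjusted p = 5.9e-05) and Arg2 by 5.89 (8e-05), and Gls2 fell by 3.45. Arg1 and Arg2 are also macrophage genes, with the macrophage markers as given above; their part was not tested. Of 10 folate cycle genes Mthfd1l rose by 1.50 and Slc25a32 and Mthfd1 fell in culture, Slc19a1 fell by 0.56 from culture to transfer, and Gldc, of the glycine cleavage system, was 2.03 higher in immunised than in transferred cells (0.0024). Of 16 other amino acid transporters 3 rose in culture (Slc7a2 by 3.79, Slc36a4 by 1.59, and Slc7a4) and 3 fell (Slc16a10 by 4.67, Slc3a1 by 1.50, and Slc38a9), both near the shares of all genes. From culture to transfer 7 rose and none fell, Slc16a10 by 4.49 and Slc7a2 by 3.85, and none was called between the CNS groups. Ass1, which recycles citrulline to arginine, was the 1 interconversion enzyme called between them, 1.02 higher in immunised cells (0.041).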

How the data were processed

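Total RNA of the 12 samples was labelled with Cy3, per the labels, and hybridised to 3 slides of 4 arrays, per the file headers; a slide held every group once, always in the same place, so position and group cannot be told apart. Replicate number marks the slide. Intensity values per spot were made by the authors with Agilent Feature Extraction 10.7.3.1, per the file headers. From 44397 spots per array, 43020 were no controls; 120 to 180 outlier spots were left out and 0 were saturated. Levels were log2 processed signals minus that of the array's 75th percentile. Of 39405 probes, 27223 were named by accession, 3573 by symbol and 565 by synonym in RefSeq's table (GRCm38.p6 names only), and 8044 kept the array's name, a gene's brightest probe by mean was used, and a gene was tested where a probe was well above background throughout a group. The deposited series matrix, also intensity values, of unstated centring and scale (medians of 50.4 to 51.3, correlation with its own array of 0.998 or more, all positive like the linear signals), was an alternative only.

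The members and gene lists were chosen with earlier results of these data known. The design followed the labels: 6 comparisons in 1 limma 3.58.1 model (R 4.3.3, lmFit and eBayes) over 12 arrays, two-sided, with Benjamini-Hochberg adjustment over 18631 genes and calls at 0.05. SE is that of the fit, SD that of 3 arrays. The p-values measure the spread between these arrays only. On simulated data of 18631 genes, where no others were changed, 35 of 100 genes changed by 1 on the log2 scale and 78 of 100 changed by 2 were called in culture minus naive, with 6 false calls. In the real comparison 3569 genes rose and 3968 fell, so the adjusted cutoff was less strict there. The simulated shares therefore do not give the share of real changes called. Same-numbered arrays did not deviate together (correlations of -0.198 to 0.204), so replicate number was fitted as a block only as an alternative. Values on all arrays were given for Slc7a3, Gdf15, Stc2, Cth, Atf4, Ddit3, Trib3, Chac1 and Asns, and for the called, non-overlapping member with the largest rise and fall per role and comparison. Of each pathway list, up to 2 rises and 2 falls were named with values; some genes of the lists are not reported here. Alternatives were other normalizations, background correction, filters, probe choice, prior, samples, threshold, and leaving out each array. Scripts used version 1.17.8 of data.table, Python 3.11.15, numpy, pandas and matplotlib.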

Additional observations from a re-analysis of the deposited data

How the results depend on the processing

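The 36 members were counted again under 23 other settings. The shares of all genes called under these settings are not reported here, so the counts describe the members only. With only genes well above background on all 12 arrays, 7 members were called in immunised minus culture and 10 in immunised minus naive. Members that were dim on any array were not tested in that setting, and no member tested there lost a call. At an adjusted p under 0.01 the counts were 5 in immunised minus transfer and 8 in transfer minus culture, and 9 in the latter from only the 6 arrays compared. Leaving out single arrays gave 5 to 13 in immunised minus transfer. All other counts stayed within 1.5 times the main one. With the replicate block the counts were 19, 14, 10, 29, 16 and 14, in the order culture minus naive, transfer minus culture, immunised minus transfer, transfer minus naive, immunised minus naive and immunised minus culture; the block ended the calls of Aldh18a1, Psph and Trib3 in the first, Slc7a1 and Slc7a11 in the second, Slc7a5 and Trib3 in the third and Slc38a1 in the last. None of the called members changed sign under any alternative. Calls kept at 0.05 under all alternatives were 15 of 22, 8 of 14, 5 of 12, 27 of 29, 12 of 16 and 10 of 15 in that order, of which 13, 7, 5, 26, 12 and 10 also had an adjusted p under 0.01 in the main analysis. Changes that were not called turned sign when 1 array was left out: Atf4 ran from -0.0716 to 0.74 in culture minus naive, -0.48 to 0.20 in immunised minus naive, -0.56 to 0.25 in transfer minus culture and -0.15 to 0.54 in transfer minus naive. Cth ran from -0.90 to 0.20 in immunised minus naive and -0.12 to 1.55 in transfer minus culture. Ddit3 ran from -0.31 to 0.45 in culture minus naive and -0.37 to 0.0605 in immunised minus transfer, and Trib3 from -0.0242 to 0.76 in transfer minus culture. The cause was not tested. With 3 arrays a group and low genes near background, folds from background are lower bounds.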

Other observations

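Arrays of 1 group were not alike across the module. Transfer replicate 3 was the highest of its group in 27 of 36 members, against 33% of all 18631 genes tested, and immunised replicate 1 was the highest in 2 of 36, against 23.8%. Naive replicate 2 was the highest in 3 of 36 (25.9% of all genes). Culture replicate 3 was the highest in 18 of 36, near its 44.6% of all genes, and had the lowest Il17a and Il23r of its group, at 2.30 and -2.29. The cause was not tested.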
